A study of Mus musculus with 6 samples.

Results

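Peg3, the paternally expressed gene 3, and 9 further imprinted genes (Usp29, Zim1, Igf2, H19, Igf2r, Plagl1, Grb10, Mest and Meg3) were followed in poly(A) RNA of mouse liver. These 10 genes are rows of a table of 45706 genes and were found by their symbols. The set was picked by its link to Peg3, whose lower count in knockout livers had already been seen in these libraries, so the knockout and wild-type values of all 10 genes are given as a description, with no test. The 6 libraries are 3 from mice labelled knockout for Entpd8 (KO 1 to KO 3) and 3 from mice labelled wild type (WT 1 to WT 3). Entpd8 encodes NTPDase8, an enzyme that hydrolyses extracellular nucleotides, and the series concerns its part in injury of the liver by ischemia and reperfusion. All mice were kept free of specific pathogens at Charles River. The labels name no strain, sex, age, further allele or agent, they do not say whether these livers had been ischemic, and they do not tie libraries to separate animals, so the spread between libraries may be technical in part.

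In genomic imprinting a mark set in the germ line silences the copy of a gene inherited from the mother or from the father, so that cells use the other copy. Imprinted genes lie in domains, each governed by a control region whose DNA is methylated on 1 parental chromosome. Many of them act on growth before birth, and in rodent liver Igf2, H19, Mest, Plagl1, Dlk1 and Meg3 are known to be abundant in the fetus and to be turned down after birth. The counts here do not separate the parental copies.

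In RefSeq, Peg3 and Usp29 start 164 bases apart and are read in opposite directions, so both share the stretch of DNA between their starts. That stretch is shown because reads were found for Peg3 and not for Usp29. The 250 bases before the start of Meg3 are shown beside it because Meg3 differed between the genotypes in the other direction. Both are RefSeq sequences on GRCm38.p6, 5′ to 3′ in the direction of Peg3 and of Meg3, and capitals mark CCAAT on either strand (read as ATTGG on the other) and TGACGTCA, the cAMP response element, which reads the same on both strands. The promoter table held 9 of the 10 genes. Gene spans given below are from GENCODE, whose Peg3 and Usp29 starts (6730431 and 6730578) lie inside the stretch shown.
Peg3, chr7:6730420-6730582, minus strand: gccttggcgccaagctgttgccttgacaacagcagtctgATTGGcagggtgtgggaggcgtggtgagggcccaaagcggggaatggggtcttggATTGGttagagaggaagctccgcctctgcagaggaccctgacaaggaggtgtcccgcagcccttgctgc
Meg3, chr12:109540746-109540995, plus strand: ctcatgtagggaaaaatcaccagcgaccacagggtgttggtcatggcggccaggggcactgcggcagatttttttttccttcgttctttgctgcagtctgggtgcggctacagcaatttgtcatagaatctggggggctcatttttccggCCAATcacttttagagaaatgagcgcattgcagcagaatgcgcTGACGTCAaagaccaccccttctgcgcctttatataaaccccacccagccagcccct

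The stretch between Peg3 and Usp29 is 163 bases long and held 5 CG dinucleotides, against a median of 4 in the same window of 32851 promoters in the table. It held CCAAT at 2 places, which at least 1 place does in 25.9% of those windows. The Meg3 stretch held 10 CG dinucleotides, against a median of 6 in the last 250 bases of all promoters. It held CCAAT once, as 33.9% of promoters do in that window on either strand. Between TGACGTCA and the Meg3 start lay 49 bases, and 1.55% of promoters held it in the same window. TGACGTCA also lay 170 bases before the Peg3 start, which is past the start of Usp29 and outside the printed stretch. The 2 motifs do not overlap. These matches describe letters and not the binding of a factor.

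Library totals ran from 32768774 to 46473531 counts. Entpd8 itself had 15, 29 and 52 counts in KO 1, KO 2 and KO 3, against 1416, 876 and 2034 in WT 1, WT 2 and WT 3, and fell (log2 fold change -5.72 ± 0.48 (SE), adjusted p = 0.00151, edgeR). In the fit over all 14069 genes that passed a low-count filter, 20.4% had an adjusted p under 0.05 (edgeR), 9.80% higher and 10.6% lower in knockout. The split moved with the scaling, from 1454 higher and 1345 lower with RLE to 1036 higher and 1570 lower with library totals alone. Knockout and wild-type libraries did not overlap for 40.7% of genes, 18.7% with knockout higher and 22.0% with knockout lower. The share of mitochondrially encoded counts was 10.1% to 11.7% in knockout and 6.52% to 8.34% in wild-type libraries. On the second principal component (16.6% of the variance of log2 CPM, counts scaled to library size) WT 2 lay at 45.8, against -20.2 for WT 1 and -19.4 for WT 3.

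Of the 10 genes, 7 passed the low-count filter, and Usp29, Zim1 and H19 did not. Among the 7, Peg3 was lower in every knockout library than in any wild-type library, Meg3 and Igf2 were higher, and 4 overlapped. The background for such separation is the 40.7% above, and since the set was built around this contrast nothing is read from 3 of 7. The plot of the 10 genes by library shows these levels together.

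**Figure D1:**
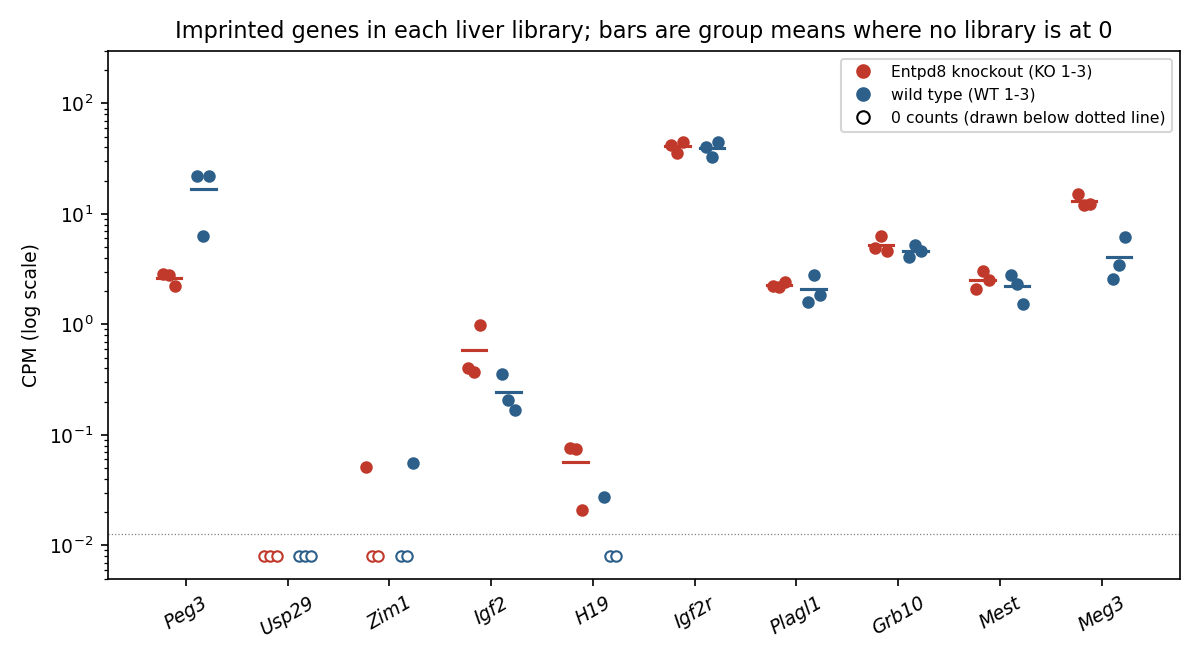
CPM of each of the 10 imprinted genes in the 3 Entpd8 knockout (red) and 3 wild-type libraries (blue), on a log scale; points are libraries, bars are group means where no library is at 0, and open points mark 0 counts. Peg3 lies at 2.23 to 2.88 CPM in knockout and 6.35 to 22.1 CPM in wild type, and Meg3 at 12.1 to 15.1 CPM in knockout and 2.56 to 6.19 CPM in wild type.

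Peg3 encodes a large zinc finger protein, transcribed from the paternal copy, that has been tied to growth, maternal behaviour and cell death. The gene (ENSMUSG00000002265) spans chr7:6703892-6730431 on the minus strand in GRCm38. Its counts were 113, 112 and 106 in KO 1, KO 2 and KO 3, against 803, 248 and 789 in WT 1, WT 2 and WT 3. The 3 knockout libraries were close to each other, while WT 2 held less than WT 1 and WT 3 and still more than any knockout library. Scaled to library size, Peg3 averaged 2.63 ± 0.351 CPM in knockout and 16.8 ± 9.04 CPM in wild type (SD, n = 3 each). The fitted log2 fold change was -2.67 ± 0.46 (SE), and -3.07 without WT 2. Per exon length, in TPM (the length-scaled share of all transcripts), Peg3 stood above 31.9% to 32.4% of detected genes in knockout libraries, against 54.0% in WT 1, 39.5% in WT 2 and 53.6% in WT 3. In bulk liver, fewer cells that express a gene and less RNA per cell cannot be told apart.

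Usp29, which encodes a deubiquitinating enzyme, starts on the other side of the shared stretch and spans chr7:6730578-6967219 on the plus strand. It had 0 counts in all 6 libraries. A count of 0 allows up to 0.0631 to 0.0763 CPM in the knockout libraries and 0.0769 to 0.0833 CPM in the wild-type libraries (3 counts of each scaled total, which covers counting error only). Zim1, a maternally expressed zinc finger gene beyond Peg3 at chr7:6671269-6696450, had 2, 0 and 0 counts in KO 1, KO 2 and KO 3, against 0, 0 and 2 in WT 1, WT 2 and WT 3. Both are thus at or under 3 counts in each library, and no difference was detectable at this depth. Zim2, Zim3, Zfp264 and Peg3os, which lie in the same domain, were not analysed here.

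Within 500 kb of Peg3 lie 30 other genes of the table, Usp29 and Zim1 among them, of which 6 passed the filter, all of them zinc finger genes. Of these 6, 0 passed at an adjusted p under 0.05 with edgeR or limma voom and 1, Zfp667, with DESeq2, while 3 had an unadjusted p under 0.05 with each tool. Over all genes, DESeq2 called 25.8% and limma voom 19.8%, and the unadjusted p was under 0.05 for 36.0% with edgeR and 35.9% with either other tool. The lowest values were those of Zfp78 (log2 fold change -1.27 ± 0.44 (SE), adjusted p = 0.0764), Zfp667 (-0.86 ± 0.27, adjusted p = 0.0570) and Zfp418 (-0.86 ± 0.31, adjusted p = 0.0877). The other 3 were Zfp772 at -0.18, Zfp28 at -0.06 and Zfp954 at 0.01 on the log2 scale. This window was added after the values of Peg3 were seen.

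Meg3, a long noncoding RNA transcribed from the maternal copy, was the member with the largest positive log2 fold change. It spans chr12:109541001-109571726 on the plus strand. Its estimated counts were 595, 485 and 587 in KO 1, KO 2 and KO 3, against 93, 135 and 223 in WT 1, WT 2 and WT 3. Every knockout library lay above WT 3, the highest wild-type library. The means were 13.2 ± 1.69 CPM in knockout and 4.07 ± 1.89 CPM in wild type (SD, n = 3 each), with a log2 fold change of 1.70 ± 0.31 (SE). The ratio of Meg3 to Peg3 counts, which does not depend on library scaling, was 5.26, 4.33 and 5.54 in KO 1, KO 2 and KO 3, against 0.116, 0.544 and 0.283 in WT 1, WT 2 and WT 3. Meg3 thus had more counts than Peg3 in each knockout library and fewer in each wild-type library.

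The other genes of the Dlk1-Meg3 domain were not among the 10 and were tested where counts allowed. Rian, a noncoding RNA that hosts small nucleolar RNAs and is read in the same direction as Meg3, rose (log2 fold change 1.67 ± 0.34 (SE), adjusted p = 0.0151, edgeR). It had 320, 165 and 242 counts in KO 1, KO 2 and KO 3, against 49, 61 and 91 in WT 1, WT 2 and WT 3. The count of Rian per count of Meg3 was 0.538, 0.340 and 0.412 in KO 1, KO 2 and KO 3, and 0.527, 0.452 and 0.408 in WT 1, WT 2 and WT 3, so the ranges overlapped. Rian did not pass without KO 1 (adjusted p = 0.0642, edgeR).

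Mirg, the next noncoding RNA downstream, which hosts microRNAs, had 23, 19 and 11 counts in knockout libraries, against 38, 15 and 23 in wild type (log2 fold change -0.69 ± 0.50 (SE), adjusted p = 0.359, edgeR). The protein-coding genes of the domain are used from the paternal copy and stood near 0. Dio3, the deiodinase that inactivates thyroid hormone, had 5, 8 and 11 counts in KO 1, KO 2 and KO 3, against 1, 0 and 0 in WT 1, WT 2 and WT 3. Dlk1, a membrane protein of fetal liver and other growing tissue, had 5, 5 and 0 counts in KO 1, KO 2 and KO 3, against 0 in each wild-type library. Rtl1, derived from a retrotransposon, and Begain had at most 2 counts in any library. The plot of the domain sets the 7 genes side by side.

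**Figure D2:**
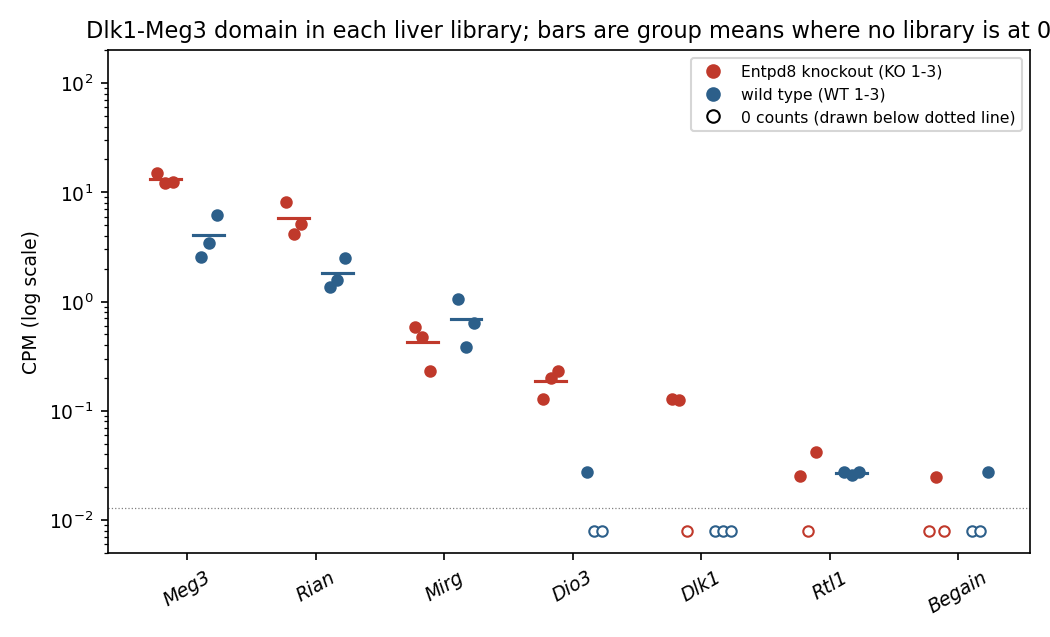
CPM of 7 genes of the Dlk1-Meg3 domain in the 3 Entpd8 knockout (red) and 3 wild-type libraries (blue), on a log scale; points are libraries, bars are group means where no library is at 0, and open points mark 0 counts. Meg3 and Rian are higher in every knockout library than in any wild-type library, while the libraries overlap for Mirg.

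Igf2 and H19 share enhancers in a domain at the far end of chromosome 7. Igf2, the paternally expressed insulin-like growth factor 2 and a main driver of fetal growth, had 16, 15 and 47 counts in KO 1, KO 2 and KO 3, against 13, 8 and 6 in WT 1, WT 2 and WT 3. All 3 knockout libraries were above all 3 wild-type libraries once scaled (0.374 to 0.988 CPM in knockout and 0.167 to 0.358 CPM in wild type), but KO 2 and WT 1 differed by only 2 counts and KO 3 alone stood well apart. The log2 fold change was 1.28 ± 0.53 (SE), and 0.68 without KO 3. Igf2 was near the low-count filter, with 3 of 3 knockout and 1 of 3 wild-type libraries over its cutoff. H19, a maternally expressed noncoding RNA, had 3, 3 and 1 counts in KO 1, KO 2 and KO 3, against 1, 0 and 0 in WT 1, WT 2 and WT 3, too few for a fold. On the opposite strand of Igf2, Igf2os had 2 counts over all 6 libraries. The labels do not say that strand was kept, so reads of genes that overlap on opposite strands cannot be told apart.

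Igf2r, used from the maternal copy, encodes the receptor that takes IGF2 to lysosomes and sorts lysosomal enzymes. It was the most abundant of the 10 genes, with 1658, 1438 and 2150 counts in KO 1, KO 2 and KO 3, against 1455, 1282 and 1600 in WT 1, WT 2 and WT 3. The groups overlapped at 41.1 ± 4.78 CPM in knockout and 39.1 ± 5.85 CPM in wild type (SD, n = 3 each), and the log2 fold change was 0.07 ± 0.15 (SE). Airn, the noncoding RNA read from the paternal copy across Igf2r on the other strand, had 9, 8 and 20 counts in knockout libraries, against 15, 7 and 33 in wild type (log2 fold change -0.80 ± 0.61 (SE), adjusted p = 0.389, edgeR).

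The other 3 genes also overlapped between the genotypes. Plagl1, a paternally expressed zinc finger factor known to act on other imprinted genes in mouse, had 87, 88 and 116 counts in KO 1, KO 2 and KO 3, against 58, 110 and 67 in WT 1, WT 2 and WT 3 (log2 fold change 0.12 ± 0.27 (SE)). The knockout libraries lay between WT 2 and the other wild-type libraries in CPM. Grb10, an adaptor that restrains insulin receptor signalling, had 193, 251 and 219 counts in KO 1, KO 2 and KO 3, against 149, 205 and 165 in WT 1, WT 2 and WT 3 (0.18 ± 0.20). Mest, a paternally expressed gene of the alpha/beta hydrolase family, had 82, 121 and 121 counts in KO 1, KO 2 and KO 3, against 101, 91 and 55 in WT 1, WT 2 and WT 3 (0.20 ± 0.29). The last 912 bases of Mest overlap Copg2 on the other strand, which had 4432 counts over the 6 libraries against 571 for Mest.

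Per exon length the order of the 10 genes differed between the genotypes mainly in the places of Peg3 and Meg3. In knockout livers the mean TPM was 9.30 for Igf2r, 1.53 for Meg3, 1.35 for Mest, 1.20 for Grb10, 0.613 for Plagl1, 0.412 for Peg3 and 0.221 for Igf2. In wild-type livers it was 10.01 for Igf2r, 3.05 for Peg3, 1.32 for Mest, 1.20 for Grb10, 0.625 for Plagl1, 0.540 for Meg3 and 0.100 for Igf2. By these means Peg3 was in place 6 in knockout and place 2 in wild type. Meg3 was in place 2 in knockout and place 6 in wild type. These places did not hold in every library. Peg3 lay below both Mest and Grb10 in WT 2, and Meg3 lay below both in KO 2. In knockout the library ranges overlapped between Meg3 and Mest, Meg3 and Grb10, Mest and Grb10, and Peg3 and Igf2. In wild type they overlapped between Peg3 and Mest, Peg3 and Grb10, Mest and Grb10, and Plagl1 and Meg3. The genes of each of those pairs thus did not differ beyond their spread. The length counts every annotated exon, so a gene with long or alternative exons reads lower than its main transcript would.

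**Figure D3:**
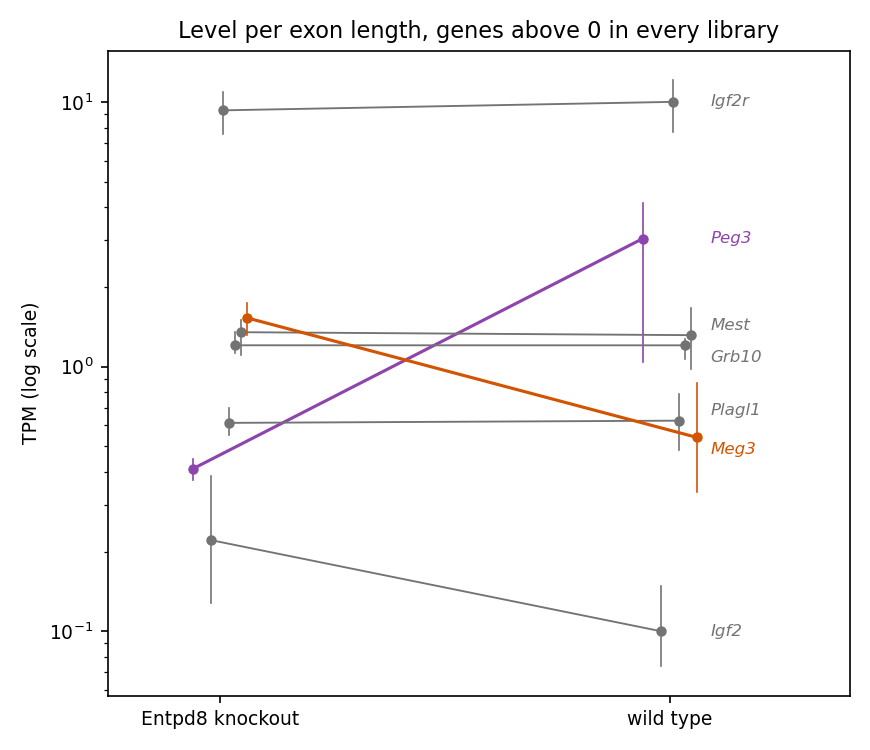
Mean TPM of the 7 genes with counts in every library, Entpd8 knockout on the left and wild type on the right, on a log scale; vertical lines are the range of 3 libraries. Peg3 (0.412 in knockout, 3.05 in wild type) and Meg3 (1.53 in knockout, 0.540 in wild type) cross the lines of Mest, Grb10 and Plagl1.

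To set these genes in context, 65 further imprinted genes of the table were taken from a list of domains, of which 43 passed the filter. Among the 43, 6 rose and 2 fell in knockout livers, against 5 and 3 with upper-quartile scaling and 4 and 3 with library totals alone. That is 18.6%, against 20.4% of all genes tested, so the listed genes as a group were called about as often as all genes. Their median log2 fold change was 0.02, against -0.02 over all 14069 genes. Genes listed as maternally expressed gave 5 higher and 2 lower of 29 tested. Those listed as paternally expressed gave 1 higher and 0 lower of 14 tested, a difference that was not tested. The list names a parental copy for each gene but no tissue, so a listed gene need not be imprinted in liver. Which copy of each gene was used in these livers was not measured.

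The largest rise in the wider list, above that of Rian, was that of Asb4 in the Peg10 domain. Asb4 encodes a substrate adaptor of a ubiquitin ligase. It had 144, 133 and 235 counts in KO 1, KO 2 and KO 3, against 39, 45 and 12 in WT 1, WT 2 and WT 3 (log2 fold change 2.21 ± 0.43 (SE), adjusted p = 0.0131, edgeR). Tfpi2, a protease inhibitor gene of the same domain, rose by 0.46 ± 0.10 (adjusted p = 0.0187), a call lost with library totals alone (adjusted p = 0.0608). Their neighbour Peg10 itself had a log2 fold change of 0.36 ± 0.30 (adjusted p = 0.422). Cdkn1c, the growth-restraining cyclin kinase inhibitor p57, rose by 1.28 ± 0.35 (adjusted p = 0.0389, edgeR). It had 48, 59 and 69 counts in KO 1, KO 2 and KO 3, against 30, 19 and 14 in WT 1, WT 2 and WT 3. That call was lost with the replicate block (adjusted p = 0.0821, edgeR) and in 5 of 6 fits with 1 library left out.

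Ddc, the aromatic amino acid decarboxylase next to Grb10, rose, with a log2 fold change of 0.71 ± 0.16 (adjusted p = 0.0206, edgeR). Commd1, which takes part in copper handling, rose by 0.45 ± 0.12 (adjusted p = 0.0376, edgeR). That call was lost with library totals alone (adjusted p = 0.0586, edgeR), upper-quartile scaling (0.0535) and the replicate block (0.0635). Zrsr1, which lies within Commd1 on the other strand, stood at -0.38 ± 0.15 (adjusted p = 0.108). Tssc4 fell, at -0.62 ± 0.15 (adjusted p = 0.0234), and Ube3a, a ubiquitin ligase whose imprinting is known from neurons, fell, at -0.47 ± 0.12 (adjusted p = 0.0342). Without KO 1 none of the 43 passed (edgeR), 10 of them with an unadjusted p under 0.05, and 4.20% of all genes passed. The highest adjusted p with 1 library left out ran from 0.0502 for Asb4 to 0.135 for Commd1 among the 8 genes. Commd1 and Ube3a, like Cdkn1c, lost their call in 5 of 6 such fits. With the replicate block, only Asb4, Ddc and Rian of the 43 passed (edgeR), and 10.4% of all genes passed.

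**Figure D4:**
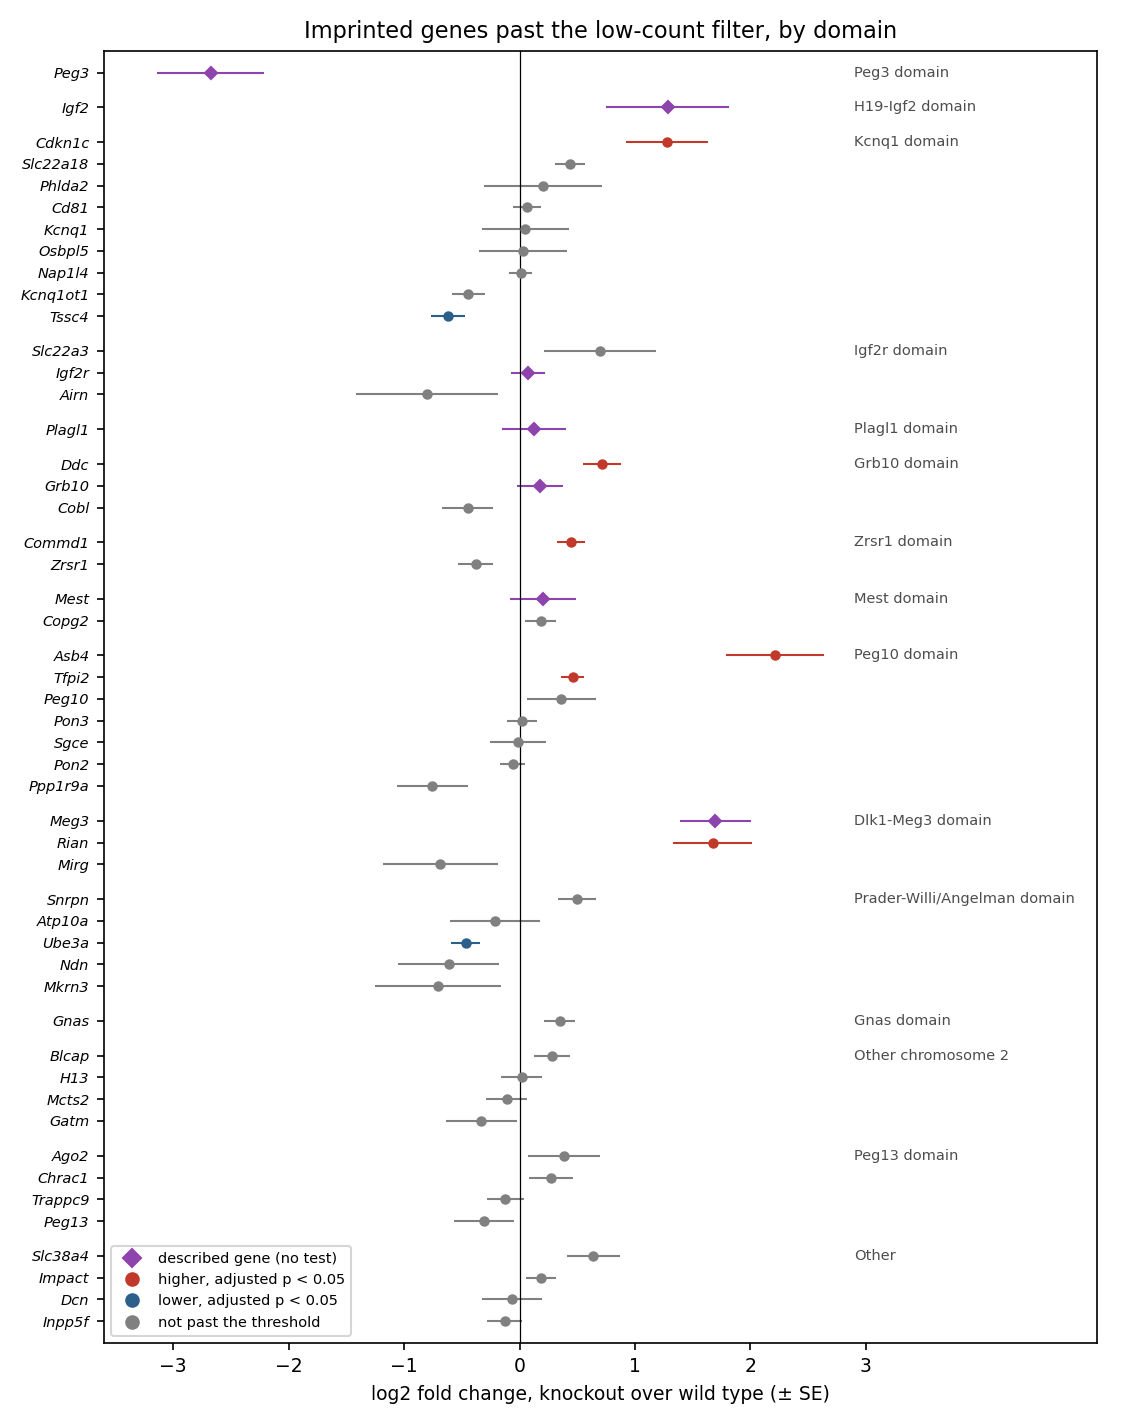
Log2 fold change, knockout over wild type, with SE, for the 7 described genes (purple diamonds, no test) and 43 further imprinted genes past the low-count filter, grouped by domain; red and blue mark genes higher and lower at an adjusted p under 0.05. Peg3 at -2.67 is the lowest and Asb4 at 2.21 the highest, and in the Dlk1-Meg3 domain Rian at 1.67 and Mirg at -0.69 lie on opposite sides of 0.

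Genes known from fetal liver, and the factors Zhx2 and Zbtb20, which restrain the fetal genes Afp and H19 (Zhx2) and Afp (Zbtb20) after birth in mouse, were listed next. Besides Igf2, H19 and Dlk1, 4 of 7 others passed the filter and 0 passed the test with edgeR, DESeq2 or limma voom, 1 with an unadjusted p under 0.05 (edgeR). Afp, the fetal counterpart of albumin, had 30, 58 and 44 counts in KO 1, KO 2 and KO 3, against 34, 15 and 38 in WT 1, WT 2 and WT 3 (adjusted p = 0.555). Gpc3, a cell surface proteoglycan, had 14, 6 and 71 counts in KO 1, KO 2 and KO 3, against 24, 17 and 27 in WT 1, WT 2 and WT 3 (adjusted p = 0.915, edgeR; the log2 fold change of 0.14 turned to -1.27 without KO 3). Zhx2 averaged 13.02 ± 1.64 CPM in knockout and 16.4 ± 0.682 CPM in wild type (SD, n = 3 each; log2 fold change -0.33 ± 0.13 (SE), adjusted p = 0.109, edgeR). Zbtb20 had a log2 fold change of -0.17 ± 0.17 (adjusted p = 0.508). The RNA-binding growth genes Igf2bp1, Igf2bp3 and Lin28b had at most 5 counts in any library.

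Factors that keep or read imprints were added to the list after the values of the 10 genes were seen, and are given with no test. Dnmt1, the enzyme that copies DNA methylation, averaged 18.1 ± 4.55 CPM in knockout and 15.4 ± 2.55 CPM in wild type (SD, n = 3 each). Trim28, the corepressor that zinc finger proteins bring to imprints, averaged 47.1 ± 0.852 CPM in knockout and 49.0 ± 1.51 CPM in wild type. Ctcf, the insulator protein that binds the control region between Igf2 and H19, averaged 22.1 ± 0.776 CPM in knockout and 31.5 ± 0.984 CPM in wild type, with no overlap (log2 fold change -0.51 ± 0.10 (SE)). Setdb1, Smchd1 and Yy1 were also lower in every knockout library, at -0.30, -0.30 and -0.25 on the log2 scale, where 22.0% of all genes were lower without overlap and 40.7% did not overlap either way. Zfp445, Zfp57, Uhrf1, Dnmt3a and Dppa3 overlapped. Dnmt3l had at most 3 counts in any library.

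The genes whose pattern was most like that of Peg3 over the 6 libraries, by Pearson's r of log2 CPM among 10458 genes with a mean log2 CPM of at least 1, were Colgalt1 (r = 0.998), Thada (0.996), Fut8 (0.995), Pomk (0.995) and Mgat5 (0.995). The points share the genotype difference and the low value of WT 2, and 752 genes had r above 0.9, so these values describe a shape that many genes have. Colgalt1 adds galactose to collagen, Fut8 adds core fucose to N-glycans, Pomk phosphorylates O-mannose and Mgat5 branches N-glycans. Thada is not placed with these enzymes, and a shared function among the 752 genes was not tested. The log2 fold changes of these most similar genes were smaller in size than that of Peg3, from -0.47 for Colgalt1 to -1.29 for Fut8.

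**Figure D5:**
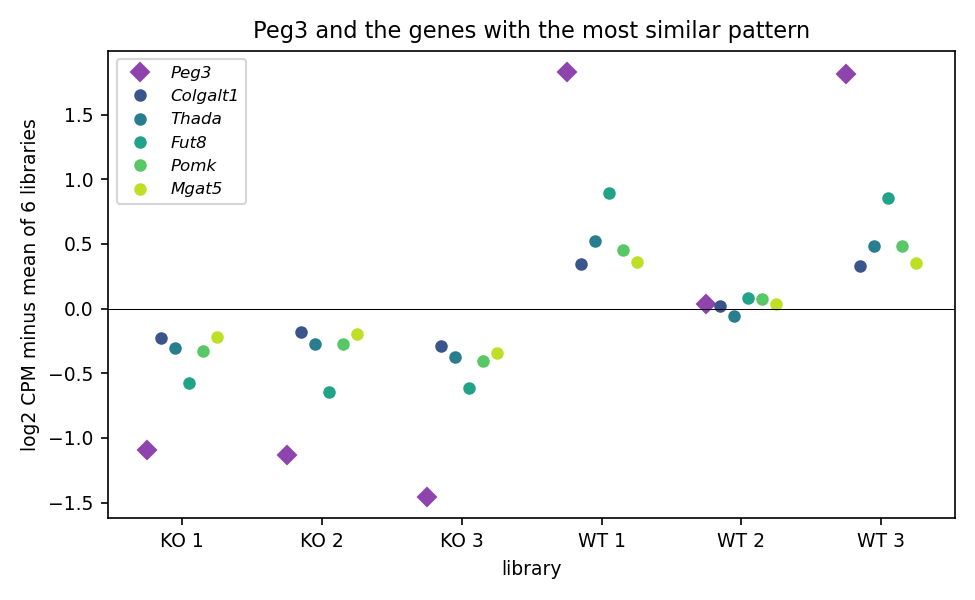
Log2 CPM of Peg3 (purple diamonds) and the 5 genes with the highest Pearson's r with it, each minus its mean over the 6 libraries, by library. All 6 genes are below their mean in the 3 knockout libraries and highest in WT 1 and WT 3, with WT 2 between, and Peg3 spans the widest range.

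The libraries carried the markers of liver, with summed CPM of 6 hepatocyte genes (Alb, Apoa1, Ttr, Cyp2e1, Cps1 and Asgr1) of 56651 to 74044 in knockout and 49699 to 64445 in wild type. Most of the sum was Alb, and Cyp2e1 rose within it (log2 fold change 0.96 ± 0.17 (SE), adjusted p = 0.0107, edgeR). Of 10 other marker lists, the summed level did not overlap between the genotypes for 6, where 40.7% of single genes did not. That share is over genes past the low-count filter, which 0 of 3 adipocyte and 2 of 4 lymphocyte markers passed. The sum was lower in knockout for Kupffer cells. It was higher for smooth muscle, cholangiocyte, lymphocyte, adipocyte and erythroid markers. The sum of 6 Kupffer cell markers was 41.1 to 56.6 CPM in knockout and 87.5 to 205 CPM in wild type. Among the wild types it was lowest in WT 2. Clec4f, Vsig4, Cd5l and C1qa fell (4 of 6 tested, adjusted p from 0.00870 to 0.0397, edgeR). For the calls in this and the other marker lists, the share over all genes was 20.4%, 9.80% higher and 10.6% lower. The sum of 6 cholangiocyte markers was 122 to 313 CPM in knockout and 80.5 to 109 CPM in wild type. Most of it was Spp1, at 80.8 to 254 CPM in knockout and 62.9 to 73.1 CPM in wild type. Krt19 and Epcam rose (adjusted p = 0.0108 and 0.0113, edgeR), while Spp1 (0.0519), Krt7 (0.141) and Sox9 (0.367) did not pass. Cldn4 had 51, 28 and 66 counts in KO 1, KO 2 and KO 3, against 6, 0 and 2 in WT 1, WT 2 and WT 3, and passed the low-count filter through the knockout libraries alone, so its call is not counted. The sum of 3 smooth muscle markers was 13.4 to 26.2 CPM in knockout and 10.5 to 11.0 CPM in wild type, and Acta2 and Tagln rose (adjusted p = 0.0125 and 0.0306, edgeR).

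Sums of 7 stellate cell markers (48.8 to 119 CPM in knockout and 85.9 to 147 CPM in wild type), 6 endothelial markers (83.9 to 119 CPM in knockout and 105 to 137 CPM in wild type) and 5 fibroblast markers (12.6 to 28.1 CPM in knockout and 27.7 to 36.9 CPM in wild type) overlapped. Of these, Col1a1 fell (log2 fold change -1.21 ± 0.33 (SE), adjusted p = 0.0376, edgeR). Erythroid markers summed to 114 to 128 CPM in knockout and 64.3 to 90.6 CPM in wild type, and nearly all of it was Alas2, which rose (0.65 ± 0.15, adjusted p = 0.0247), while Slc4a1 stood at -1.74 ± 0.87 (adjusted p = 0.197). Summed lymphocyte markers were 0.891 to 1.75 CPM in knockout and 0.461 to 0.771 CPM in wild type, with Ms4a1 at 13 counts in all in knockout and 16 in wild type. Adipocyte markers summed to 0.199 to 1.43 CPM in knockout and 0.0256 to 0.139 CPM in wild type, mostly from Cfd, while Adipoq had 3 counts in all in knockout and 3 in wild type. Mesothelial markers overlapped (0.399 to 2.84 CPM in knockout and 0.231 to 2.03 CPM in wild type), and no marker of any list was at 0 in all libraries. The part of these cell types in the values of the imprinted genes was not tested.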

How the data were processed

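Per the labels, RNA of mouse liver was extracted with an RNeasy kit, enriched for poly(A) RNA and made into libraries with a NEBNext Ultra II kit. Reads were handled with Trim Galore, STAR and Salmon against GRCm38, per the submitters' processing notes, with versions not given in the sources used here. As deposited, the values were expected counts, estimated by the authors for each gene without scaling, and 8.38% to 9.32% of genes per library were not whole. Of 45706 genes, 45143 matched a symbol. Positions and exon lengths came from GENCODE M21 (GRCm38), and promoter sequences from RefSeq (GRCm38.p6).

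Counts were rounded, filtered with filterByExpr, scaled by TMM and tested on genotype by edgeR 4.0.16 (R 4.3.3) with its robust quasi-likelihood F-test, which is two-sided, with Benjamini-Hochberg adjustment over 14069 genes. The SE was taken as the absolute log2 fold change over the root of the F statistic. CPM uses TMM-scaled totals, log2 CPM a prior count of 2, and TPM the unrounded counts per exon length. Alternatives changed the scaling, filter, tool, replicate block or 1 library at a time. The fit was tested on simulated data. No pair of libraries within a group agreed within counting noise. The genes named are Entpd8, the 10 members, every gene of the wider list with an adjusted p under 0.05 up to 20, the fetal liver list and the 5 genes most like Peg3 (without pseudogenes, predicted genes and Riken clones). Members and lists were chosen with earlier results of these data known. Genes of those lists beside a named one, neighbours and markers were named after their values were seen. Figures used matplotlib 3.10.9.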

Additional observations from a re-analysis of the deposited data

How the results depend on the processing

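The log2 fold change of Peg3 ran from -3.07 to -2.43 over 15 alternatives: scaling by RLE, by upper quartiles or by library totals, no low-count filter, a minimum count of 50, DESeq2 1.42.0, limma voom 3.58.1, the replicate block, no mitochondrial or hemoglobin genes, and leaving out each library. That of Meg3 ran from 1.45 to 2.12. Igf2r was -0.01 with library totals alone, and with a library left out Igf2r, Plagl1 and Mest reached -0.04, -0.04 and -0.01. Leaving out 1 library gave 603 to 3080 genes called, against 2871 (603 without KO 1, 1594 without KO 2, 1744 without KO 3, 1653 without WT 1), and 0 to 8 of the wider imprinted genes, against 8 (0 without KO 1, 5 without KO 2, 3 without KO 3). DESeq2 called 12 of the 43 (27.9%, against 25.8% of all genes) and limma voom 8 (18.6%, against 19.8%). Gpc3 turned to -0.39 with limma voom, and leaving out 1 library moved it from -1.27 to 0.60. The cause was not tested. Library totals alone shifted the median log2 fold change of all genes by -0.08, to -0.10, and the other scalings shifted it less. With a minimum count of 50, Igf2, Afp, Gpc3 and Cdkn1c gave no value.

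Same-numbered libraries did not deviate together (r = -0.0762, 0.0126 and -0.0853 for numbers 1, 2 and 3), and 0 of 3 knockout libraries correlated best with the wild-type library of its number. They share a number only. The replicate block gave 1468 genes called, 3 of the wider imprinted genes, -2.50 for Peg3 and -0.31 for Gpc3. Depth limits Usp29, Zim1, H19 and the paternal genes of the Dlk1-Meg3 domain, whose counts were at most 11 in any library.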
